A study of Mus musculus with 12 samples.

Results

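The genes described here are 9 genes of interferon reception and signalling, Ifnar1, Ifnar2, Ifngr1, Ifngr2, Stat2, Irf9, Irf7, Usp18 and Socs1, in regulatory T cells of NOD.Drak2-/- and NOD mice. They were chosen by name, each from the brightest array row that carries its symbol, and all 9 had a row among the 19505 genes with a row. NOD.Drak2-/- mice are labelled as lacking both copies of Drak2, the serine/threonine kinase encoded by Stk17b, on the NOD background, a strain that develops autoimmune diabetes, and NOD mice of that background were their controls. Cells of both genotypes came from lymph nodes of females aged 4 to 8 weeks and are labelled CD4+ CD8- CD25+ CD45RBlo, although the sorting antibodies named are those to CD4, CD8 and CD45RB. Each array is labelled a biological replicate from a mouse, with 6 arrays per genotype, numbered 1 to 5 and 7 for NOD.Drak2-/- and 1 to 6 for NOD. The sources used here do not say how the Drak2 allele was made or how far it was backcrossed. All levels below are log2 array values as deposited, and each difference is the NOD.Drak2-/- mean less the NOD mean on that log2 scale.

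Interferons are cytokines that signal through receptor pairs at the cell surface. Type I interferons bind IFNAR1 and IFNAR2 and activate the kinases JAK1 and TYK2, which phosphorylate STAT2. STAT2 and IRF9 are subunits of the complex ISGF3, which switches on antiviral genes, Irf7 and Usp18 among them. Interferon-gamma binds IFNGR1 and IFNGR2 and uses JAK1 and JAK2. Usp18 and Socs1 encode brakes that are induced by the signal and dampen it, and Socs1 is known to be needed for regulatory T cells to stay stable under inflammation.

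The arrays differed in some respects besides genotype. Stk17b, the targeted gene, averaged 10.25 ± 0.15 in NOD.Drak2-/- and 10.52 ± 0.21 in NOD (SD, n = 6 each), with overlapping groups. The difference of Stk17b was -0.27 (unadjusted p = 0.0392, adjusted p = 0.517 in limma), and 0 of 6 NOD.Drak2-/- arrays lay above the NOD mean. The sources used here do not place the Stk17b probes relative to the deleted part, so Stk17b checks the label of no array. Of 11 measured regulatory T cell markers, 10 were brighter than 5.87, the mean of the brightest of 23 background rows (probes with no genomic target). The exception was Il2ra, which encodes CD25 (5.00 in NOD.Drak2-/- and 4.82 in NOD), and Foxp3 was not analysed here. Of the markers of other cells, 0 of 12 myeloid and dendritic, 1 of 7 B cell, 1 of 4 NK, 1 of 2 CD8 T cell and 4 of 7 plasmacytoid dendritic cell markers were above that level. The brightest background row of each array ran from 5.55 to 6.77 in NOD.Drak2-/- and from 5.51 to 6.06 in NOD, and stood highest in NOD.Drak2-/- replicates 1 and 2 (6.52 and 6.77). The means of the hybridization controls ran from 9.14 to 10.8 in NOD.Drak2-/- and from 9.30 to 9.90 in NOD. The array medians over all genes ran from 5.18 to 5.24 in NOD.Drak2-/- and from 5.22 to 5.34 in NOD.

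The 4 receptor genes differed by 0.02 to 0.20 between genotypes, while Stat2, Irf9, Irf7 and Usp18 had means higher by 0.41 to 1.10 in NOD.Drak2-/- and Socs1 lay near background. None of the 9 genes passed the test over all genes in limma (adjusted p of 0.05 after Benjamini-Hochberg adjustment over 19505 genes), a threshold that 4 of all genes (0.0205%) passed. At an unadjusted p under 0.05 there were 4 of the 9, Stat2, Irf9, Irf7 and Usp18, all with a higher mean in NOD.Drak2-/-. The background for that count was 9.43% of all genes in either direction and 3.74% with a higher mean in NOD.Drak2-/-. Without NOD.Drak2-/- replicates 1 and 2, whose background rows were brightest, the count was 2, Irf9 and Usp18. The median difference over the 9 genes was 0.20 and 8 of 9 differences were positive, while the median over all genes was -0.02 and 8956 of 19505 were positive. In 0 of the 9 genes did the arrays of the genotypes separate without overlap, against 0.513% of all genes. The 9 genes were chosen with earlier results of these data known, so their counts and median are a description.

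**Figure D1:**
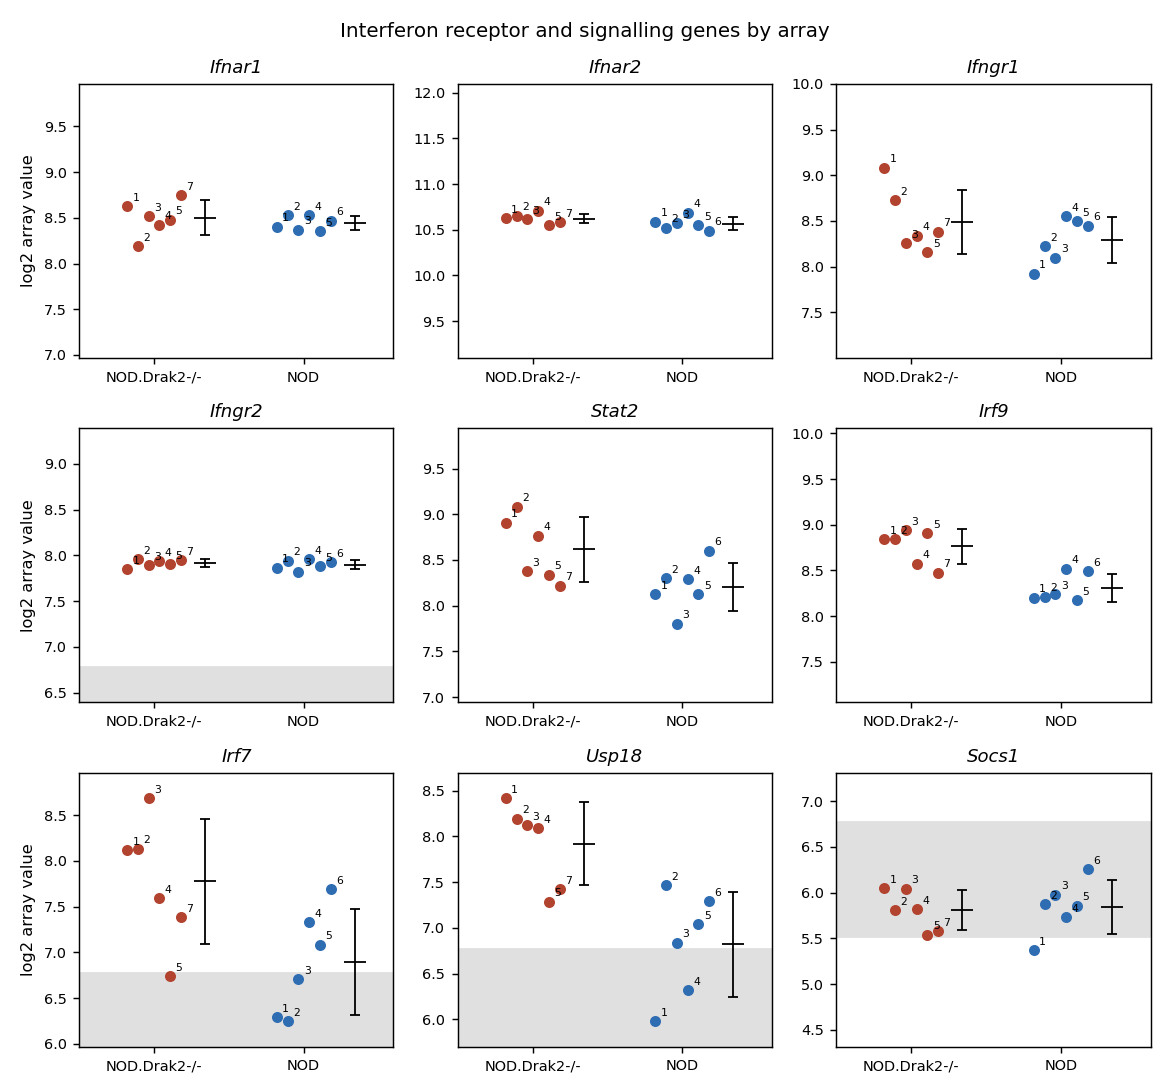
Log2 array values of the 9 genes in 6 NOD.Drak2-/- (red, left) and 6 NOD (blue, right) arrays, numbered by replicate, with the mean and SD beside each group. Every panel spans the same log2 range, and the grey band marks the range of the arrays' brightest background rows (5.51 to 6.77). Irf7 and Usp18 spread most and the receptor chains Ifnar2 and Ifngr2 least, and all Socs1 values but that of NOD replicate 1 (5.37) lie in the band. Irf7 of NOD replicates 1, 2 and 3 (6.29, 6.24 and 6.71) and of NOD.Drak2-/- replicate 5 (6.74) also lies in it. So does Usp18 of NOD replicates 1 and 4 (5.98 and 6.32), though all these values are above their own array's brightest background row.

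The type I receptor chains had small differences. Ifnar1, which recruits TYK2, ran from 8.19 through a median of 8.50 to 8.75 in NOD.Drak2-/- and from 8.36 through 8.44 to 8.53 in NOD. Its NOD.Drak2-/- arrays lay on both sides of the NOD range, 2 above it and 1 below it. The difference was 0.06 (SE 0.11, 95% interval -0.17 to 0.29, adjusted p = 0.886 in limma), which on the fold scale is an interval of 0.887 to 1.22. Ifnar2, the chain that binds interferon most tightly and to which USP18 protein docks, ran from 10.55 through 10.62 to 10.71 in NOD.Drak2-/- and from 10.49 through 10.56 to 10.68 in NOD. The groups overlapped over most of their length, and the difference was 0.05 (SE 0.09, 95% interval -0.14 to 0.24, adjusted p = 0.863 in limma).

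Of the interferon-gamma receptor chains, Ifngr1 varied more between arrays. Ifngr1, the ligand-binding chain, ran from 8.16 through 8.36 to 9.08 in NOD.Drak2-/- and from 7.92 through 8.34 to 8.55 in NOD. The medians were nearly the same, and 2 NOD.Drak2-/- arrays, replicates 1 (9.08) and 2 (8.72), lay above all NOD arrays. The difference was 0.20 (SE 0.16, 95% interval -0.14 to 0.55, adjusted p = 0.706 in limma), and without those arrays, which are the ones with the brightest background rows, it was -0.0064. With the GC dependence of the background rows as a covariate it was 0.33 (unadjusted p = 0.0253, adjusted p = 0.320 in limma). Ifngr2, the signal-transducing chain, whose level is known to set how T cells respond to interferon-gamma, ran from 7.85 through 7.92 to 7.96 in NOD.Drak2-/- and from 7.82 through 7.90 to 7.96 in NOD. It was the steadiest of the 9 genes, with an SD of 0.04 in NOD.Drak2-/- and 0.05 in NOD, and its difference was 0.02 (SE 0.09, 95% interval -0.17 to 0.20, adjusted p = 0.961 in limma). In the RefSeq gene order of assembly GRCm38.p6, Ifnar2, Il10rb, Ifnar1 and Ifngr2 follow each other on chromosome 16. Il10rb, the other receptor gene of that cluster and a chain shared by the interleukin 10 and lambda interferon receptors, averaged 9.12 ± 0.10 in NOD.Drak2-/- and 9.14 ± 0.22 in NOD (SD, n = 6 each).

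Stat2, the ISGF3 subunit that carries its transactivation domain, had a higher mean in NOD.Drak2-/-, carried by part of the arrays. It ran from 8.22 through 8.57 to 9.08 in NOD.Drak2-/- and from 7.80 through 8.21 to 8.60 in NOD. All 6 NOD.Drak2-/- arrays lay above the NOD mean and 3 of them, replicates 1, 2 and 4, above every NOD array. The difference was 0.41 (SE 0.17, 95% interval 0.06 to 0.76, unadjusted p = 0.0259, adjusted p = 0.504 in limma), and the two-sided exact permutation test gave p = 0.0519. Without NOD.Drak2-/- replicates 1 and 2 the difference was 0.22 (unadjusted p = 0.188, adjusted p = 0.735 in limma). Leaving out only NOD.Drak2-/- replicate 1, 2 or 4 or NOD replicate 3 gave differences of 0.31 to 0.38 with unadjusted p from 0.0504 to 0.0681 in limma. It was 0.36 with the myeloid marker mean as a covariate (unadjusted p = 0.0501) and 0.34 with the hybridization control mean (unadjusted p = 0.0908).

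The promoters of the 9 genes were searched for the site that ISGF3 is known to bind and for the gamma-activated sequence. Stat2, Irf9, Irf7, Usp18 and Socs1 are themselves targets of the pathway. RefSeq promoter windows of assembly GRCm38.p6, 250 bases before to 50 after a start site, were at hand for 8 of the 9 genes, all but Usp18. The core of the interferon-stimulated response element, spelled here as GAAA, any pair of bases and GAAA again on either strand, was found in 2 of the 8, Stat2 and Socs1, and in 3.99% of all 27025 genes with a window. The windows of Ifnar1, Ifnar2, Ifngr1, Ifngr2, Irf9 and Irf7 did not hold these letters. Of 21 type I targets with a window, 9 held them. The gamma-activated sequence, spelled here as TTCNNNGAA with N any base, was found in 2 of the 8, Ifnar1 and Ifnar2. It was found in 9.55% of all genes with a window and in 6 of the 21 type I targets. The stretches with the response element core are shown, and they belong to a gene with a higher mean in NOD.Drak2-/- and to a gene with no direction. The Stat2 stretch is chr10:128270248-128270347 on the plus strand, the Socs1 stretch is chr16:10785565-10785664 on the minus strand, both are 100 bases read 5′ to 3′ along the gene, and capitals mark the cores.
Stat2: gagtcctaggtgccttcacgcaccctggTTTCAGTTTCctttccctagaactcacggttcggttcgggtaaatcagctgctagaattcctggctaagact
Socs1: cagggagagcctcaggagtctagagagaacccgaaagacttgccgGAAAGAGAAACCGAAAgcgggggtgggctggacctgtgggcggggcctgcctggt
In Stat2 the core lies on the opposite strand, 222 to 213 bases before the start site. In Socs1 a pair of cores overlaps, covering 83 to 68 bases before the start site. A match is a description of the reference sequence and not a site shown to be bound in these cells.

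Irf9, the DNA-binding subunit of ISGF3, differed by a similar amount with less spread. It ran from 8.48 through 8.84 to 8.94 in NOD.Drak2-/- and from 8.17 through 8.23 to 8.52 in NOD. The groups met only at their edges, since 5 of 6 NOD.Drak2-/- arrays lay above every NOD array and the lowest, replicate 7 (8.48), lay below NOD replicates 4 (8.52) and 6 (8.49). The difference was 0.46, or 1.37-fold (SE 0.12, 95% interval 0.21 to 0.70, unadjusted p = 0.00123, adjusted p = 0.413 in limma). The two-sided exact permutation test gave p = 0.00649.

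Irf7, the transcription factor that amplifies type I interferon production once it is induced, had the widest spread. It ran from 6.74 through 7.86 to 8.69 in NOD.Drak2-/- and from 6.24 through 6.89 to 7.69 in NOD. Replicates 1, 2 and 3 of NOD.Drak2-/- (8.12, 8.14 and 8.69) lay above every NOD array, replicates 4 and 7 (7.60 and 7.39) lay within the NOD range, and replicate 5 (6.74) lay below the NOD mean. The difference was 0.89, or 1.85-fold (SE 0.30, 95% interval 0.24 to 1.53, unadjusted p = 0.00987, adjusted p = 0.469 in limma). The two-sided exact permutation test gave p = 0.0411, and the SD was 0.68 in NOD.Drak2-/- and 0.58 in NOD (n = 6 each). Without NOD.Drak2-/- replicates 1 and 2 the difference was 0.71 (unadjusted p = 0.0599, adjusted p = 0.627 in limma).

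Usp18, which encodes the protease that strips ISG15 from proteins and blocks signalling at IFNAR2, had the largest difference of the 9 genes and the smallest p. It ran from 7.29 through 8.11 to 8.42 in NOD.Drak2-/- and from 5.98 through 6.94 to 7.47 in NOD. NOD.Drak2-/- replicates 1 to 4 (8.42, 8.19, 8.13 and 8.09) lay above every NOD array, while replicates 5 (7.29) and 7 (7.42) lay below NOD replicate 2 (7.47). The difference was 1.10, or 2.14-fold with a 95% interval of 1.48 to 3.11 (SE 0.25, unadjusted p = 0.000497, adjusted p = 0.388 in limma). The two-sided exact permutation test gave p = 0.0108. Without NOD.Drak2-/- replicates 1 and 2 the difference was 0.91 (unadjusted p = 0.00569, adjusted p = 0.503 in limma). With the GC dependence of the background rows as a covariate the difference of Usp18 was 1.33 and passed over all genes (adjusted p = 0.0126 in limma, with 0.0126 to 0.829 over all alternatives).

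Socs1, which encodes the suppressor of JAK kinases, lay near background. It ran from 5.54 through 5.81 to 6.05 in NOD.Drak2-/- and from 5.37 through 5.87 to 6.26 in NOD, and 4 of 6 arrays of each genotype were dimmer than their own brightest background row. Such values bound the level only from above. The measured difference was -0.04 (SE 0.15, 95% interval -0.35 to 0.27, adjusted p = 0.945 in limma), with a sign that turned under median centring and other settings, so Socs1 has no direction here. The other 8 genes were brighter than their own array's brightest background row on all 12 arrays.

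**Figure D2:**
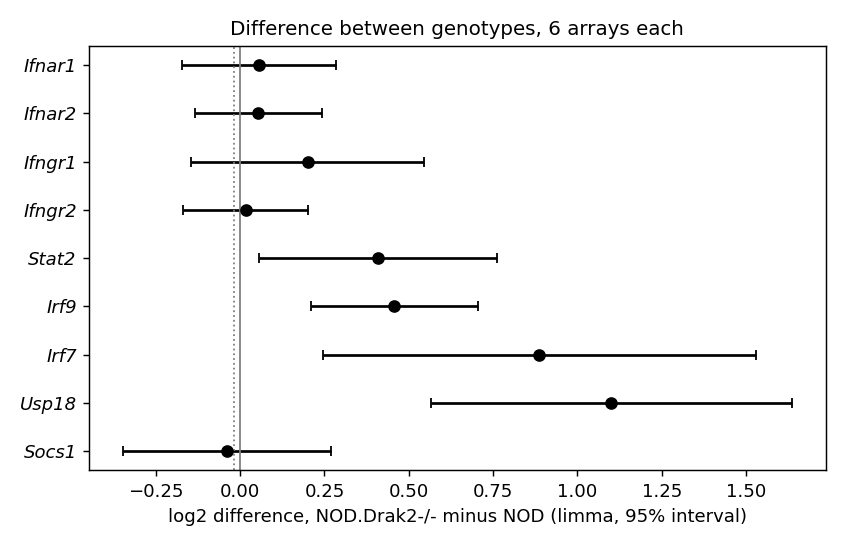
Differences of the 9 genes (points) with 95% intervals from limma, 6 arrays per genotype; the solid line is 0 and the dotted line the median over all 19505 genes (-0.02). The intervals of Stat2, Irf9, Irf7 and Usp18 lie above 0 before adjustment for the number of genes, and those of the 4 receptor chains and Socs1 include 0.

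The 4 genes with an unadjusted p under 0.05 were counted in each array. They were chosen by their difference in these same arrays. Values beyond the other genotype follow in part from that choice, and the counts only describe the arrays. In NOD.Drak2-/- replicates 1 and 2, 4 of the 4 genes lay above every NOD array, in replicates 3 and 4 this held for 3 of 4, in replicate 5 for 1 (Irf9) and in replicate 7 for 0. In NOD replicates 1 and 3, 4 of the 4 genes lay below every NOD.Drak2-/- array, in replicate 5 for 3, in replicate 2 for 2, in replicate 4 for 1 and in replicate 6 for 0. The arrays with the fewest such genes were NOD.Drak2-/- replicates 5 and 7 and NOD replicates 4 and 6. Heat shock and dissociation genes averaged 8.25 to 8.26 in NOD.Drak2-/- replicates 1 to 3 and 7.89 to 8.05 in replicates 4, 5 and 7. Their mean ran from 7.93 to 8.23 in NOD. The list holds Fos, Jun, Junb, Egr1, Atf3 and Dusp1 beside chaperone genes, and what it measures in these cells was not tested. Of its 13 measured genes 5 had a positive difference and 8 a negative one. Fos differed by 0.44 (unadjusted p = 0.0480, adjusted p = 0.527 in limma). Of these 13 genes 11 were above background. With their mean as a covariate, the difference of Usp18 was 1.14 (adjusted p = 0.0720 in limma) and that of Irf7 was 0.94 (adjusted p = 0.369).

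**Figure D3:**
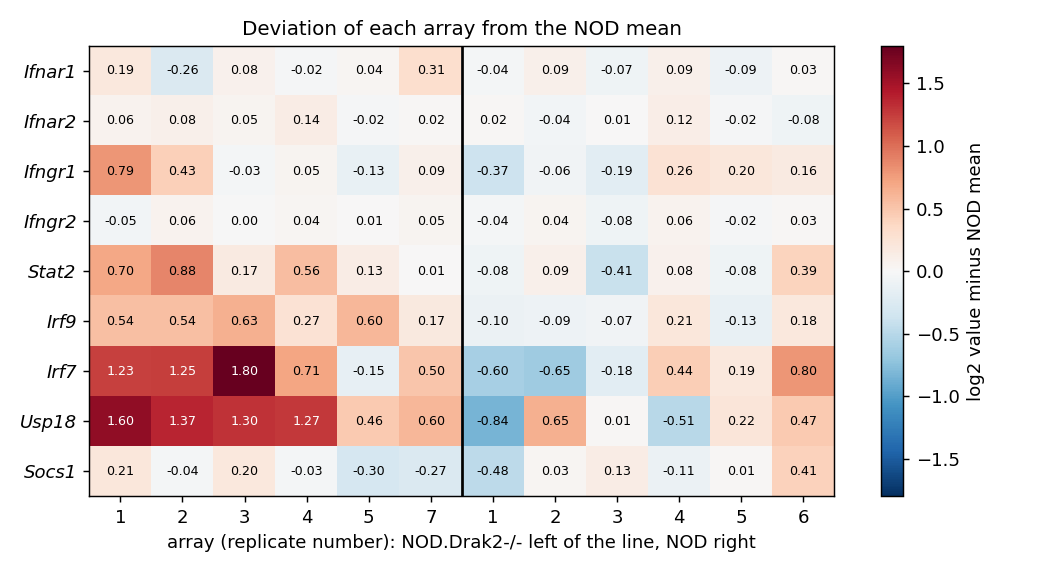
Each array's log2 value minus the NOD mean for the 9 genes, with NOD.Drak2-/- arrays left of the line and NOD arrays right of it. The Usp18 cells of NOD.Drak2-/- replicates 1 to 4 are the darkest of that gene, and the colours of Ifnar2 and Ifngr2 stay pale throughout.

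After centring each gene within each genotype, the likeness of the genes to each other over the 12 arrays was computed. Of 36 pairs the closest was Usp18 with Socs1 (Pearson r = 0.84, Spearman rho = 0.78, r = 0.69 without the 2 arrays farthest out for Usp18), with Socs1 near background. Next by r were Irf7 with Socs1 (r = 0.73, rho = 0.57), Ifngr1 with Stat2 (r = 0.66, rho = 0.64) and Ifngr1 with Irf7 (r = 0.55, rho = 0.48). Usp18 with Stat2 gave r = 0.54 and rho = 0.64, and Usp18 with Irf7 gave r = 0.47 and rho = 0.34, where r was 0.82 within NOD.Drak2-/- and r = 0.17 within NOD (n = 6 each). Usp18 with Irf9 gave r = 0.11 and rho = 0.07. These are descriptions of 12 arrays that share RMA normalization, with no p.

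Among 8128 genes brighter than background, the genes most like each of the 9 were taken by the same measure. For Usp18 they were S1pr2 (r = 0.89), Tmem52 (0.88) and Rybp (0.86), and for Irf7 they were Cactin (0.95), Plaur (0.89) and Rpsa (0.85). For Irf9 they were Shmt2 (0.90), Traf1 (0.89) and Ager (0.88), and for Stat2 Gtf3c1 (0.93), Klf10 (0.92) and Ptprc (0.92). The receptor genes were most like Phf8, Top1 and Lin52 (Ifnar1), Brd2, U2surp and Rbm7 (Ifnar2), Csnk2a1, Vars2 and Smu1 (Ifngr1) and Fam163b, Shc1 and Daglb (Ifngr2), and Socs1 was most like Psmf1, Mrgbp and Rnf187. Of these 27 genes 0 belonged to the interferon pathway groups described next. Those groups held only 57 of the 8128 genes compared, so the count of 0 does not set the 9 genes apart from the pathway. With so many genes compared over 12 arrays, the highest values of r (0.82 to 0.95) are a ranking only.

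The kinases and transcription factors that work beside these genes included 1 of 3 kinases, with a higher mean in NOD.Drak2-/-, and 1 of 6 interferon regulatory factors, with a lower one, at an unadjusted p under 0.05, and 0 of 5 STAT genes. The background was 9.43% of all genes in either direction. Tyk2, the kinase on IFNAR1, averaged 7.70 ± 0.30 in NOD.Drak2-/- and 7.24 ± 0.45 in NOD (SD, n = 6 each), a difference of 0.46 (unadjusted p = 0.0325, adjusted p = 0.512 in limma), with 6 of 6 NOD.Drak2-/- arrays above the NOD mean. Jak1 differed by -0.13 (adjusted p = 0.716) and Jak2 by -0.06 (adjusted p = 0.894). The 5 measured STAT genes differed by 0.08 to 0.12, with Stat5a at 0.12 (adjusted p = 0.772) and Stat3 at 0.08 (adjusted p = 0.810). Of 6 interferon regulatory factors, 1 had an unadjusted p under 0.05, Irf5, a factor of myeloid and B cells, which averaged 4.36 in NOD.Drak2-/- and 5.03 in NOD (difference -0.67, adjusted p = 0.469), below the background level of 5.87. Irf3, which is activated without needing to be induced, differed by 0.24 (adjusted p = 0.614). The medians of these groups were -0.06, 0.09 and 0.05.

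Genes of interferons themselves were at or near background. Of 19 measured ligand genes, 3 had a mean above 5.87, Ifna5 (5.94 in NOD.Drak2-/- and 6.05 in NOD), Ifnl2 and Ifnl3. At an unadjusted p under 0.05 there were 3 of 19, each with a lower mean in NOD.Drak2-/-, led by Ifnl2 (5.75 in NOD.Drak2-/- and 6.19 in NOD, difference -0.43, adjusted p = 0.469) and Ifnl3 (6.12 in NOD.Drak2-/- and 6.40 in NOD, difference -0.28, adjusted p = 0.485). Near background such differences cannot be read as expression, and the background share for lower means was 5.69% of all genes. The median over the ligands was -0.10. Of the other receptor chains, Ifnlr1, the lambda interferon receptor, was below background, at 4.83 in NOD.Drak2-/- and 4.81 in NOD.

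Of the dampening genes other than Usp18 and Socs1, 0 of 10 had an unadjusted p under 0.05, and of the ISG15 conjugation genes 2 of 4 had, both with a higher mean in NOD.Drak2-/-. The background was 9.43% of all genes in either direction and 3.74% with a higher mean. The 10 dampeners, among them STAT inhibitors of the Pias family and phosphatases of the Ptpn family, had a median of 0.08, with Ptpn11 at 0.17 (adjusted p = 0.643) and Pias3 at 0.21 (adjusted p = 0.668). ISG15 is a ubiquitin-like protein that Usp18 removes from its targets and that the enzymes encoded by Uba7, Ube2l6 and Herc6 attach. The median over these 4 genes was 0.39. Uba7, the activating enzyme, ran from 9.41 through 9.49 to 9.75 in NOD.Drak2-/- and from 8.79 through 9.06 to 9.39 in NOD. It was the 1 gene of the 94 measured in the pathway groups whose genotypes did not overlap (difference 0.45, SE 0.12, adjusted p = 0.413 in limma), beside 0.513% of all genes. Isg15 averaged 5.77 in NOD.Drak2-/- and 5.28 in NOD (difference 0.49, adjusted p = 0.512), below the background level.

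Most target genes had a higher mean in NOD.Drak2-/-, with none passing over all genes. Of 29 measured type I targets, 26 had a positive difference, 9 had an unadjusted p under 0.05, all with a higher mean in NOD.Drak2-/-, and the median was 0.24. Of the 29, 17 had a mean above background, and of the 9, Mx2 did not, with 3 NOD.Drak2-/- and 5 NOD arrays below their own brightest background row. Also below it were 2 NOD arrays of Cmpk2, 1 NOD array of Dhx58 and 1 array of each genotype of Rtp4. The smallest p-values were those of Ifih1, a sensor of viral RNA (7.22 ± 0.27 in NOD.Drak2-/- and 6.46 ± 0.27 in NOD, SD, n = 6 each, difference 0.76, adjusted p = 0.211), and of Cmpk2, a mitochondrial nucleotide kinase (7.10 ± 0.55 in NOD.Drak2-/- and 6.09 ± 0.32 in NOD, difference 1.01, adjusted p = 0.332). Of 16 interferon-gamma targets, 14 had a positive difference and 2 had an unadjusted p under 0.05, with a median of 0.16. These were the immunity-related GTPase genes Irgm1 (difference 0.79, adjusted p = 0.469) and Igtp (0.40, adjusted p = 0.493). Over all 94 genes of the pathway groups, 0 passed in limma over all genes, 14 had an unadjusted p under 0.05 with a higher mean in NOD.Drak2-/- and 4 with a lower one, beside 3.74% and 5.69% of all genes. The groups were listed with earlier results of these data known, so the counts are a description.

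**Figure D4:**
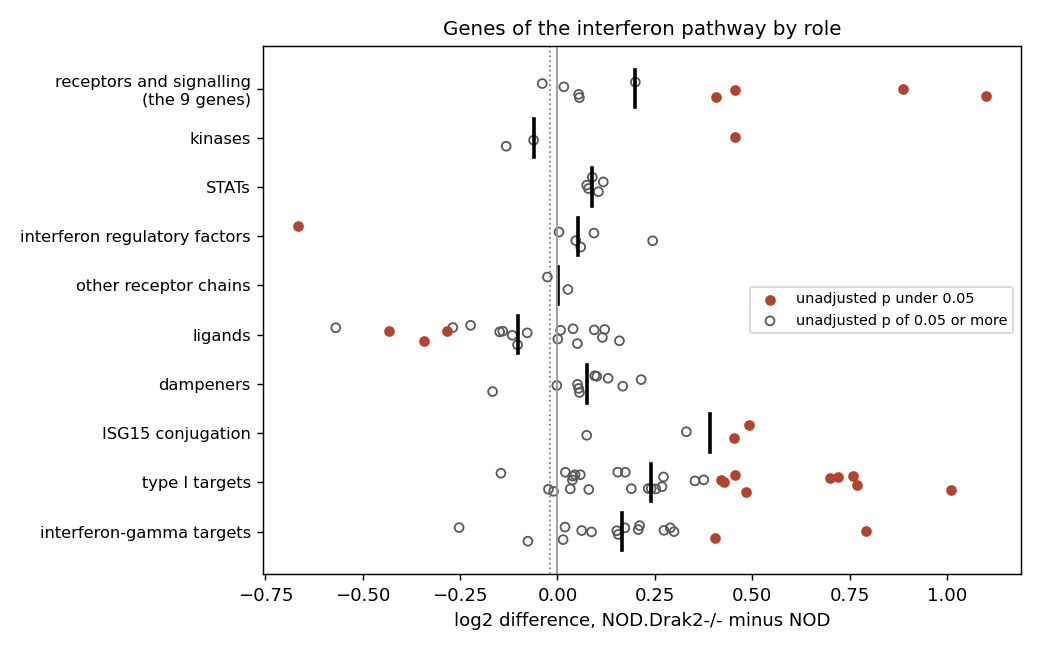
Difference of each gene in the 9 genes described here and in 9 groups of the interferon pathway (points; filled where the unadjusted p was under 0.05), with the group median (bar), 0 (solid line) and the median of all genes (-0.02, dotted). Points above 0.40 belong to the 9 genes, Tyk2, ISG15 conjugation and the target groups, and 11 of 19 ligand points lie below 0.

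Markers of cells that could carry interferon-induced RNA into the sort were set beside these values. The mean of 7 plasmacytoid dendritic cell markers, cells that are the main producers of type I interferon, ran from 5.66 to 5.89 in NOD.Drak2-/- and from 5.66 to 5.90 in NOD. Of these 7, 4 were above background, Pacsin1, Tcf4, Cox6a2 and Ccr9, with differences of -0.05 to 0.23, and 3 were below it, among them the surface gene Siglech, at 4.00 in NOD.Drak2-/- and 4.26 in NOD. The mean of 12 myeloid and dendritic markers ran from 4.27 to 4.59 in NOD.Drak2-/- and from 4.18 to 4.49 in NOD, and that of 7 B cell markers from 4.78 to 5.49 in NOD.Drak2-/- and from 4.92 to 5.14 in NOD. The highest array of the myeloid list was NOD.Drak2-/- replicate 1. On the B cell list NOD.Drak2-/- replicate 2 was the highest array and replicate 1 the lowest. The 1 B cell marker above background, Cd79b, averaged 6.37 ± 0.18 in NOD.Drak2-/- and 5.89 ± 0.25 in NOD (SD, n = 6 each), a difference of 0.48 (unadjusted p = 0.00215, adjusted p = 0.436 in limma) with 6 of 6 NOD.Drak2-/- arrays above the NOD mean. The 1 NK marker above background, Eomes, which T cells can also express, averaged 6.26 in NOD.Drak2-/- and 5.84 in NOD (difference 0.42, unadjusted p = 0.0373, adjusted p = 0.517 in limma). Below background, the myeloid marker Csf1r differed by 0.55 and the dendritic marker Cd209a by -0.37, and the B cell markers Pax5 and Blk by -0.54 and -0.30, each with an unadjusted p under 0.05. With a list mean as a covariate, the difference of Usp18 was 1.10 (B cell), 0.92 (myeloid and dendritic) and 1.08 (plasmacytoid dendritic), against 1.10 without. These fits do not test the part of these cells in the differences of the interferon genes. List means made mostly of genes below background do not measure the cells. In RNA of sorted cells in bulk, more RNA per cell and more cells that express a gene cannot be told apart.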

How the data were processed

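RNA of sorted regulatory T cells (125 ng per array, made into biotin-labelled cDNA with a whole-transcript kit, per the labels' protocols) was measured on 12 single-colour arrays. The authors deposited log2 intensities, and per the submitters' processing notes RMA and oligo were used. Arrays give no counts, so the number of arrays limits the precision.

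Of 22206 transcript cluster rows, 19572 carried 1 gene symbol in the platform annotation, 0 several and 2634 none. The brightest row was kept per gene, which left 19505 genes. No filter on dim genes was applied. The genotypes were fitted with lmFit and eBayes (limma 3.58.1, R 4.3.3) without covariates, with Benjamini-Hochberg adjustment over all 19505 genes and a threshold of 0.05. On simulated data of 19505 genes drawn independently of each other, 82% of differences of 1 and 16% of differences of 0.5 were recovered. In that simulation 150 genes passed, against 4 in the deposited data, which makes the adjusted threshold looser there. These shares therefore do not give the power of the comparison made here. Exact permutation tests used every regrouping. The named genes were all 9 members, of each pathway group the 2 smallest p-values, Jak1, Jak2 and Tyk2, and the 3 genes most like each member. Ifna5, Mx2, Dhx58, Rtp4, Stk17b and the cell markers stand where a count or check needed them. The members and lists were chosen with earlier results of these data known. Same-numbered arrays of the genotypes were checked for pairing: their deviations correlated between -0.18 and 0.09, which showed no pairing over the genes as a whole. Pairing that touches only part of the genes was not tested, and a fit with the replicate block is given among the alternatives. The sources used here do not name a genome build for the array.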

Additional observations from a re-analysis of the deposited data

How the results depend on the processing

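The differences of Ifnar1, Ifnar2, Ifngr2, Stat2, Irf9, Irf7 and Usp18 kept their sign under all 27 alternatives. Ifnar1 ran from 0.0063 to 0.12, Ifnar2 from 0.038 to 0.12 and Ifngr2 from 0.0012 to 0.082, each highest with median centring. Ifngr1 was 0.27 with median centring. Usp18 ran from 0.91 to 1.33, Irf7 from 0.70 to 1.13, Irf9 from 0.42 to 0.55 and Stat2 from 0.22 to 0.57. Members past the threshold numbered 0 except with the background GC covariate, where 1, Usp18, passed (difference 1.33, adjusted p = 0.0126 in limma); the range of its adjusted p over the alternatives was 0.0126 to 0.829. Members at an unadjusted p under 0.05 numbered 5 with the background GC covariate, which added Ifngr1, 3 with the myeloid or the hybridization covariate, which lost Stat2, 3 to 4 in fits that left out 1 array, and 2 without the arrays with the 2 brightest background rows, a fit chosen after the data had been seen. Without them Ifngr1 turned to -0.0064. Socs1, at -0.04, turned to 0.027 with median centring, 0.066 with the background GC covariate, 0.089 with the replicate block and without the block on the same 10 arrays, and ran from -0.13 to 0.044 in fits that left out 1 array (0.044 without NOD replicate 6, 0.014 and 0.0067 without NOD.Drak2-/- replicates 5 and 7). Genes past the threshold numbered 4, and 1 with all transcript rows or the B cell, myeloid or plasmacytoid covariate, 2 with the hybridization covariate, 2 without the arrays of brightest background and 7 with the background GC covariate. They were 1 to 2 when 1 array was left out. With the replicate block there were 0 (and 1519 at an unadjusted p under 0.05 in limma), and 2 on the same arrays without it, and 0 of 5 arrays correlated best with its own number. Genes at an unadjusted p under 0.05 numbered 729 without dim genes and 839 with the hybridization covariate, and 1347 to 2538 when 1 array was left out, against 1840, and genes without overlap numbered 39 without dim genes, against 100. The cause of these changes was not tested, except that fewer genes are tested without dim genes. Signal near background limits Socs1, Isg15, Irf5, the ligands, 12 of 29 type I targets and most markers of other cells. The lowest Irf7 and Usp18 values, mostly of NOD arrays, also lay within the range of the arrays' brightest background rows.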
